A study of Drosophila melanogaster with 12 samples.

Results

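Syt1, nSyb, VGlut and Gad1 are 4 genes of synaptic transmission in Drosophila melanogaster whose poly(A) ends were counted by 3'READS or 3'READS+, methods that sequence RNA fragments ending in a poly(A) tail so that a read shows where a transcript ended. They were chosen by name. Their reads are those on the gene's own strand, from its start to 1000 nt past its end or to the next gene on that strand, and they are 4 of 3622 genes with at least 1 read in the regions where genes could be named. The libraries came from heads or bodies of adult flies kept at 25ºC, either w1118, used as wild type, or the RpII215 strain, which carries the C4 allele of the largest subunit of RNA polymerase II in every cell. The wild type had 4 libraries from each tissue and the mutant 2 from each. The labels give neither the sex or exact age of the flies, nor whether C4 was homozygous, nor how many flies were pooled. They do not say whether replicates were separate groups of flies, and the spread behind every p-value is that between these libraries, which may be technical. Bodies keep motor neurons and, in the thorax, a nerve cord, so they are not free of neurons.

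At a chemical synapse an action potential opens calcium channels, and calcium makes vesicles filled with transmitter fuse with the membrane of the nerve terminal. Fusion is driven by SNARE proteins on the vesicle and on the membrane, and a calcium sensor on the vesicle triggers it. Syt1 encodes synaptotagmin 1, that calcium sensor, and nSyb encodes neuronal synaptobrevin, the SNARE of the vesicle. VGlut encodes the transporter that loads vesicles with glutamate, the transmitter of fly motor neurons. Gad1 encodes glutamic acid decarboxylase, which makes the inhibitory transmitter GABA from glutamate. Many neuronal genes of the fly have alternative poly(A) sites, and longer 3'UTRs are a known feature of the fly nervous system. The C4 polymerase is known for slow elongation, and the comparison of strains asks whether the polymerase affects which poly(A) site is used.

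Syt1 (FBgn0004242) lies on the minus strand of 2L from 2772327 to 2799979 and has 8 annotated transcripts. VGlut (FBgn0031424) lies on the plus strand of 2L from 2400295 to 2410662 and has 2. On 3L, nSyb (FBgn0013342) occupies the minus strand from 1630348 to 1637752 with 8 transcripts, and Gad1 (FBgn0004516) the minus strand from 4074077 to 4088744 with 4. No other gene on the same strand overlaps any of them. Counting went 1000 nt past the end for nSyb and VGlut, 550 nt for Syt1 and 122 nt for Gad1, where the next gene begins. Over the 12 libraries the genes had 31851 reads for Syt1, 3926 for VGlut, 1781 for nSyb and 1767 for Gad1. Levels below are CPM, the reads of a gene per 1000000 reads assigned to named genes after TMM scaling.

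Total reads per library ran from 2219693 to 9062730. Sample numbers form 2 distant ranges, called blocks here: block 1 holds wild-type replicates 1 and 2 of both tissues, and block 2 holds the mutant libraries and the wild-type replicates numbered 3 and 4. Both libraries numbered 2 in the wild type also stood apart in position. Of the 4000 most used minus-strand positions of wild-type head 4, only 9.93% were used at the same base in wild-type head 2 and 9.13% in wild-type body 2, against at least 93.9% in each other library. On the plus strand the shares were 71.4% and 69.0%. The wild-type tests were therefore also run without both libraries numbered 2. Results of that run are given for the tissue calls of the members' levels, the block call of nSyb, the Syt1 shares and the counts called. Others, such as those of markers, gene lists, nSyb sites and likeness, are not given separately without these libraries. In some marker lists every marker was called in the direction of the head and body labels. All 4 photoreceptor and all 3 glial markers in the named regions were called higher in wild-type heads. All 6 male accessory gland and germline markers were called higher in wild-type bodies. Single libraries did not all follow: summed glial markers stood at 3196 CPM in wild-type head 2, below 3685 CPM in body 2 and 4296 CPM in body 1. In wild-type heads 1, 3 and 4 they stood above every wild-type body. Other lists were less uniform: 3 of 4 gut markers were higher in bodies, and neither of 2 fat body markers tested was called. Of 3 muscle markers, 1 was higher in heads and 2 in bodies. RpII215 itself lies outside the named regions and was not analysed here.

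All 4 genes were about an order of magnitude higher in heads than in bodies of wild-type flies. Syt1 stood at 36973.5, 13530.2, 935.5 and 839.2 CPM in wild-type heads 1 to 4 and at 2916.4, 956.7, 103.1 and 36.2 CPM in wild-type bodies 1 to 4. nSyb stood at 628.0, 149.6, 286.2 and 241.7 CPM in the heads and at 58.6, 19.8, 6.99 and 12.8 CPM in the bodies. Every head exceeded every body for nSyb, whereas for Syt1 the bodies of block 1 reached above the heads of block 2. VGlut stood at 491.6, 715.0, 729.8 and 670.4 CPM in the heads and at 74.4, 89.1, 43.7 and 37.0 CPM in the bodies. Gad1 stood at 1046.1, 601.9, 206.5 and 130.4 CPM in the heads and at 137.7, 99.0, 16.6 and 6.79 CPM in the bodies. The VGlut groups did not overlap and the head values were the most even of the 4 genes, while Gad1 in body 1 exceeded its level in head 4. Of all genes tested, 10.7% had every wild-type head above every wild-type body. Lower reads in bodies can reflect fewer neurons or less RNA per neuron, which cannot be told apart in bulk RNA.

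In edgeR's quasi-likelihood test with the block as a term and Benjamini-Hochberg adjustment over 2380 genes, the log2 fold change of heads over bodies was 3.59 ± 0.57 (SE) for Syt1 with an adjusted p of 0.000753. It was 3.84 ± 0.64 for nSyb (adjusted p = 0.000917), 3.41 ± 0.42 for VGlut (adjusted p = 0.000201) and 3.18 ± 0.46 for Gad1 (adjusted p = 0.000458). All 4 members were thus called higher in heads, in a comparison that called 47.8% of the genes tested in either direction and 17.4% as higher, and where the median change of all genes was 0.04. Within block 1 alone, with 2 libraries a group, the changes were 3.67 for Syt1, 3.24 for nSyb, 2.71 for VGlut and 2.69 for Gad1. Those of Syt1 and nSyb did not pass there in the same edgeR test, with adjusted p of 0.0766 and 0.0831. Within block 2 alone they were 3.67, 4.69, 4.11 and 3.85, and all passed. Without the block as a term, Syt1 (3.48, adjusted p = 0.139) and Gad1 (2.74, adjusted p = 0.0689) did not pass. Leaving out both libraries numbered 2 kept all calls. The head tissue differed in other cell types as well: summed photoreceptor markers ranged from 24878 to 93263 CPM in wild-type heads and from 26.2 to 5919 CPM in bodies. All 3 glial markers were called higher in heads, although their sum in wild-type head 2 lay below that in wild-type bodies 1 and 2. The part of these cell types in the result was not tested.

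**Figure D1:**
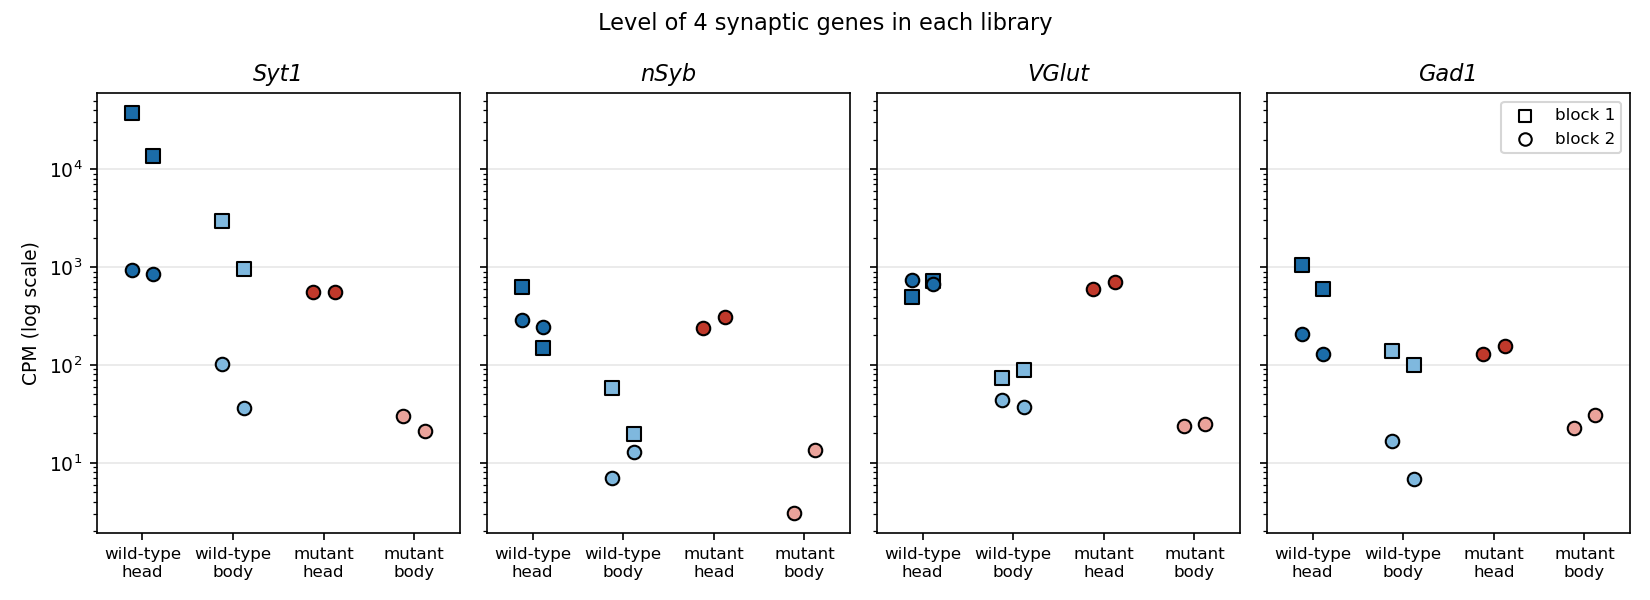
CPM of each gene on a log scale, with 1 point per library, grouped by genotype and tissue; squares are libraries of block 1 and circles those of block 2. The heads lie above the bodies within each block for all 4 genes, and for Syt1 and Gad1 the block 1 squares lie far above the block 2 circles.

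The mutant showed the same order of tissues. Syt1 was at 549.8 and 549.4 CPM in mutant heads 1 and 2 and at 29.9 and 21.4 CPM in mutant bodies 1 and 2. nSyb was at 236.3 and 307.1 CPM in the heads and at 3.09 and 13.6 CPM in the bodies, the latter resting on 3 and 19 reads. VGlut was at 595.8 and 707.1 CPM against 23.7 and 25.0 CPM, and Gad1 at 130.2 and 155.2 CPM against 22.7 and 30.7 CPM. Both heads exceeded both bodies for each member, as they did for 35.3% of all genes tested. The log2 changes were 4.48 ± 0.57 for Syt1, 5.0 ± 0.59 for nSyb, 4.79 ± 0.37 for VGlut and 2.46 ± 0.45 for Gad1. Their adjusted p in edgeR's test over 2762 genes were 0.000561, 0.000479, 0.000261 and 0.0022, so all 4 were called higher; of all genes 55.8% were called, and 21.1% were called higher. Gad1 had the smallest change of the 4 in the mutant, counting all reads of a gene. Part of its reads in mutant bodies lay inside the gene, as given below. Whether the Gad1 change differs from that in the wild type was asked by the interaction, also given below.

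Syt1 and Gad1 also differed between the blocks within the wild type, and VGlut did not pass this test. In heads, mean Syt1 was 25252 ± 16577 CPM (SD, n = 2) in block 1 and 887 ± 68.1 CPM (SD, n = 2) in block 2, a ratio of 28.5. In bodies the ratio was 27.8, from 1937 to 69.7 CPM. Mean Gad1 was 4.89 times higher in block 1 heads and 10.1 times higher in block 1 bodies, whereas VGlut was 0.862 times in heads and 2.03 times in bodies. The 2 blocks did not overlap within either tissue for Syt1 and Gad1, as for 50.1% of all genes tested. In bodies VGlut and nSyb did not overlap between the blocks either, as for 69.0% of genes. The block term of the wild-type edgeR fit, a comparison added after these data had been seen, was 4.75 ± 0.61 for Syt1 (adjusted p = 0.000658) and 2.72 ± 0.46 for Gad1 (adjusted p = 0.00203). It was 1.14 ± 0.59 for nSyb (adjusted p = 0.148) and 0.34 ± 0.39 for VGlut (adjusted p = 0.507). At the same threshold 40.1% of the genes tested differed between the blocks, so 2 of 4 members called is near that background. Without both libraries numbered 2, nSyb also passed (1.83, adjusted p = 0.00215), as it did without wild-type head 2 alone (1.64, adjusted p = 0.0183).

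The tissue ratio of Syt1 varied far less than its level. Taking heads and bodies of the same number, the ratio of CPM was 12.7, 14.1, 9.07 and 23.2 in wild-type numbers 1 to 4 and 18.4 and 25.7 in mutant numbers 1 and 2. For nSyb it was 10.7, 7.56, 40.9 and 18.8 in the wild type and 76.4 and 22.7 in the mutant, where bodies had few reads. For VGlut it was 6.61, 8.03, 16.7 and 18.1, then 25.1 and 28.3, and for Gad1 7.60, 6.08, 12.4 and 19.2, then 5.74 and 5.06. These ratios use all reads of a gene, which in some bodies lay largely inside it. Counting only reads past the last coding base, Syt1 stood at 910.1 CPM in wild-type head 3 and at 14.0 CPM in wild-type body 3. On that count Gad1 stood at 125.5 and 150.2 CPM in mutant heads 1 and 2. In mutant bodies 1 and 2 it stood at 3.09 CPM, from 3 reads, and 20.7 CPM. Summed photoreceptor markers were 3800 and 5919 CPM in the block 1 bodies and 26.2 and 52.8 CPM in the wild-type bodies of block 2. Their part in these ratios was not tested.

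Within block 2, edgeR called no member between the strains. In heads, with the values of wild-type replicates 3 and 4 as control, the log2 change of mutant over wild type was -0.67 ± 0.48 for Syt1, 0.06 ± 0.47 for nSyb, -0.08 ± 0.31 for VGlut and -0.21 ± 0.41 for Gad1. The adjusted p in edgeR's test ran from 0.76 to 1, and 1.16% of 2762 genes were called. Both mutant heads had less Syt1 than both wild-type heads of block 2, while the other 3 genes overlapped; of all genes 45.2% had no overlap there. In bodies the changes were -1.47 ± 0.52 for Syt1 (adjusted p = 0.186), -0.23 ± 0.61 for nSyb (adjusted p = 0.881), -0.76 ± 0.33 for VGlut (adjusted p = 0.292) and 1.17 ± 0.49 for Gad1 (adjusted p = 0.262), and 2.68% of genes were called. Both mutant bodies lay below both wild-type bodies of block 2 for Syt1 and VGlut and above them for Gad1, whereas nSyb overlapped. Of all genes 44.0% had no overlap in bodies. With these errors a change of the size of 1 log2 unit in bodies could not be told from the spread, so the missing calls do not show that the strains were alike.

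The body values of Syt1 and Gad1 rested partly on reads inside the gene. Counting only reads past the last coding base, Syt1 stood at 14.0 and 31.7 CPM in wild-type bodies 3 and 4 and at 17.5 and 17.8 CPM in the mutant bodies. Gad1 stood at 15.7 and 5.28 CPM in these wild-type bodies and at 3.09 and 20.7 CPM in the mutant bodies. On this count the strains overlapped for both genes. Without wild-type body 3 the change of Syt1 over all its reads was -0.57 in place of -1.47. The interaction, which asks whether the effect of the strain differs between head and body, was -1.38 ± 0.64 for Gad1 (adjusted p = 0.8), 0.81 ± 0.71 for Syt1, 0.67 ± 0.45 for VGlut and 0.29 ± 0.77 for nSyb. edgeR called none of the 2762 genes (0.0%) for it, with 179 at an unadjusted p under 0.05, and DESeq2 called 13.

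**Figure D2:**
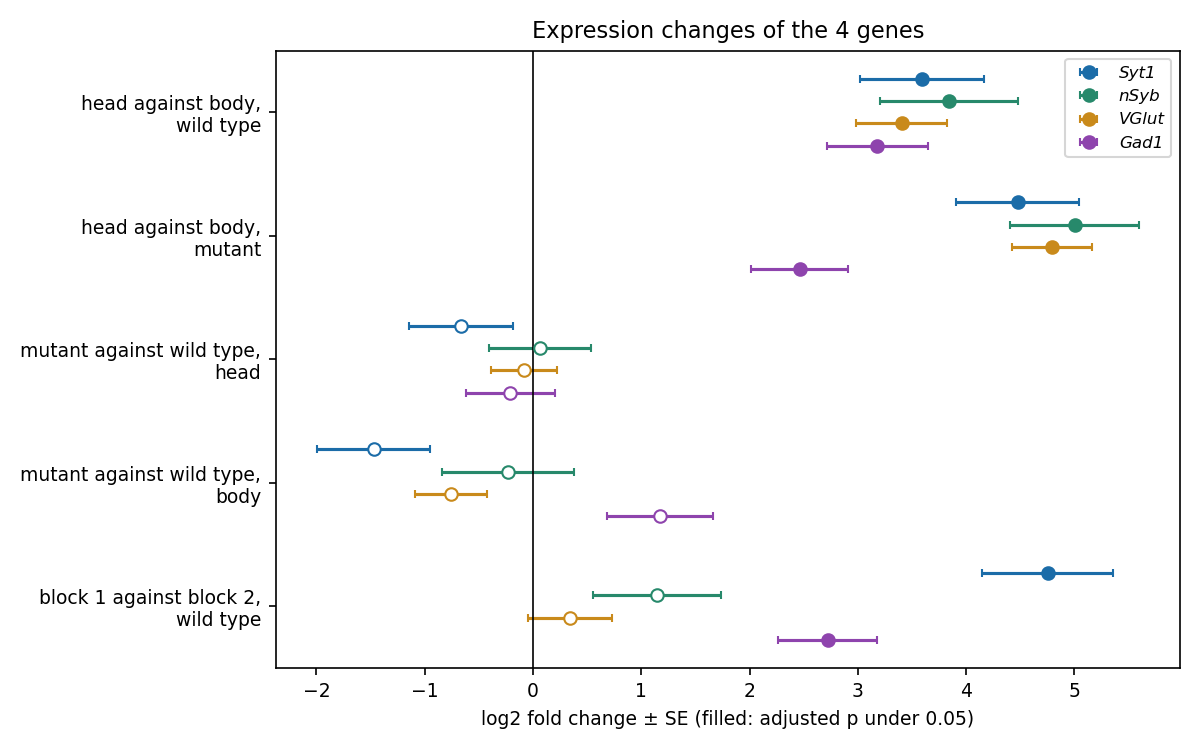
Log2 fold change of each gene with its standard error in 5 comparisons; filled points had an adjusted p under 0.05 in edgeR's test. All 4 genes are filled in both tissue comparisons, none in either comparison of strains, and Syt1 and Gad1 in the comparison of blocks.

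Syt1 transcripts ended mainly at 2 places. Positions within 24 nt of the most used one were joined into sites, and a site past the last coding base is called a 3'UTR site. The proximal site at 2780896 lay 2175 nt past the last coding base, in an exon of all 8 transcripts and 155 nt short of the nearest annotated end. The distal site at 2772335 lay 10736 nt past it in the genome and 8 nt from the end of the 1 transcript that reaches so far. The sites were 8561 nt apart. Reads at the proximal site numbered 14217, 3659, 539 and 375 in wild-type heads 1 to 4, of 21134, 3706, 1040 and 897 3'UTR reads. At the distal site there were 6874, 0, 342 and 367 reads.

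The share of the proximal site was 67.3%, 98.7%, 51.8% and 41.8% in the wild-type heads and 56.1%, 98.6%, 12.5% and 7.14% in the wild-type bodies. The shares of the distal site were 32.5%, 0%, 32.9% and 40.9% in heads and 43.5%, 0%, 62.5% and 52.4% in bodies. Both libraries numbered 2 had no distal read at all, and 0 of 3706 reads allows a share of up to 0.081% in the head and 0 of 289 up to 1.04% in the body. These limits, like the Wilson intervals below, cover counting error only. Bodies 3 and 4 had only 16 and 42 3'UTR reads, and the proximal share there has 95% Wilson intervals of 3.5 to 36.0% and 2.46 to 19.0%. In every wild-type pair without number 2, the proximal share was higher in the head and the distal share higher in the body. The mutant pair numbered 1 had the opposite order for both, with a proximal share of 16.4% in the head and 9 of 17 reads (52.9%) in the body, and a distal share of 62.2% against 47.1%.

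The tissue test of each share compares reads at a site with reads at the gene's other 3'UTR sites, as a log2 ratio. With the block as a term the head-over-body change was 2.10 ± 1.58 for the proximal site (adjusted p = 0.542) and -1.36 ± 2.48 for the distal site (adjusted p = 0.847), so neither was called, and 12.3% of 2768 sites were. Head and body of the same number deviate together in the wild type, but the block they share enters this, so pairing by number is not shown. With that number as a replicate block in edgeR's test, the proximal site was called (1.20 ± 0.33, adjusted p = 0.00146) and the distal site was not (-0.83 ± 0.35, adjusted p = 0.0539). Without both libraries numbered 2 both were called, at 1.37 (adjusted p = 0.0077) and -0.84 (adjusted p = 0.0217). Within block 2 the proximal site was called at 3.15 (adjusted p = 0.000356). Within block 1, which holds the number 2 libraries, the change was 0.60 with a standard error of 3.65 and was not called.

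The mutant heads used the proximal Syt1 site less than any wild-type head. It took 112 of 682 and 146 of 642 3'UTR reads in mutant heads 1 and 2, or 16.4% (95% Wilson interval 13.8 to 19.4%) and 22.7% (19.7 to 26.1%). The distal site took 62.2% and 54.2% of the reads there, above the 32.9% and 40.9% of wild-type heads 3 and 4. A smaller site at 2780578, which reached 5% only among the libraries of block 2, took 11% and 10.6% in the mutant heads and 3.94% and 5.35% in wild-type heads 3 and 4. None of the 3 sites overlapped between the mutant heads and the wild-type heads of block 2, which held for 49.8% of the sites tested. The log2 changes were -1.87 ± 0.60 for the proximal site (adjusted p = 0.147), 1.26 ± 0.43 for the distal site (adjusted p = 0.183) and 1.33 ± 0.65 for the site at 2780578 (adjusted p = 0.446). They were not called in edgeR's fit, where 4.39% of 2981 sites were.

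These calls depended on the mutant bodies, which share the estimate of the spread. Mutant body 1 had 9 proximal and 8 distal reads of 17, and mutant body 2 had 3 proximal and 14 distal reads of 25. Without mutant body 1 all 3 sites of Syt1 were called in heads at nearly the same size, the proximal site at -1.87 with an adjusted p of 1.61e-10. The same held without mutant body 2, with an adjusted p of 2.77e-10 for the proximal site, and these fits treat the lone mutant body as varying like the other groups. In bodies, the change of the proximal share between strains was 2.05 ± 1.01 (adjusted p = 0.352) and that of the distal share -0.24 ± 0.61 (adjusted p = 0.952), with 4.93% of sites called. Without mutant body 2 the proximal change in bodies was called at 3.5 (adjusted p = 0.00148). Whether the effect of the strain on these shares differs between tissues was not tested.

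nSyb had 3 3'UTR sites above 5% of its reads. They lay 345 nt (1631925), 1557 nt (1630713) and 1926 nt (1630344) past the last coding base, the last 4 nt past the annotated end of the gene. In wild-type heads 1 to 4 the nearest site took 84.4%, 31.7%, 26.6% and 33.2% of 359, 41, 312 and 253 3'UTR reads. The farthest site took 0.557%, 2.44%, 50.0% and 47.0%, and the middle site 3.62%, 29.3%, 15.7% and 15.0%. The farthest site was thus nearly unused in block 1, with 2 and 1 reads in heads and 0 of 62 and 0 of 6 reads in bodies, where 0 of 62 allows a share of up to 4.84%. In wild-type bodies 3 and 4 it took 5 of 8 and 8 of 16 reads, and the nearest site 3 and 7 of them.

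Some other sites were also nearly unused in single libraries of block 1. Among 3'UTR sites with at least 20% of the reads of their gene in the wild-type heads of block 2, 12 of 362 on the minus strand were under 1% in wild-type head 1 and 17 of 235 in wild-type head 2. In mutant heads 1 and 2 the numbers were 5 of 595 and 4 of 636. On the plus strand they were 12 of 353 in wild-type head 1, 12 of 217 in wild-type head 2, and 6 of 603 and 6 of 632 in the mutant heads. The distal Syt1 site was at 0% in head 2 and 32.5% in head 1, and the farthest nSyb site was under 1% in head 1 and at 2.44% in head 2.

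In mutant heads the farthest nSyb site took 62.1% and 58.0% and the nearest site 13.1% and 19.0% of 298 and 357 3'UTR reads. The farthest share was above and the nearest share below both wild-type heads of block 2, an absence of overlap that 49.8% of sites had, and the middle site, at 13.4% and 16.2%, overlapped with them. The log2 changes of mutant over wild type in heads were 0.67 ± 0.48 for the farthest site (adjusted p = 0.72), -1.16 ± 0.60 for the nearest (adjusted p = 0.481) and -0.06 ± 0.49 for the middle site (adjusted p = 1). None was called, and the nearest site was called at -1.14 without mutant body 1 (adjusted p = 0.00358) or mutant body 2 (adjusted p = 0.00323). Mutant bodies had 3 and 18 3'UTR reads of nSyb, too few for a difference to be detectable. Between tissues in the wild type none of the 3 sites was called, the middle site coming closest at 1.81 ± 1.08 (adjusted p = 0.398). It was called within block 2 (4.09, adjusted p = 0.0476) and without wild-type head 1 (3.09, adjusted p = 0.048), where the bodies of block 2 had none of their 24 reads at it.

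**Figure D3:**
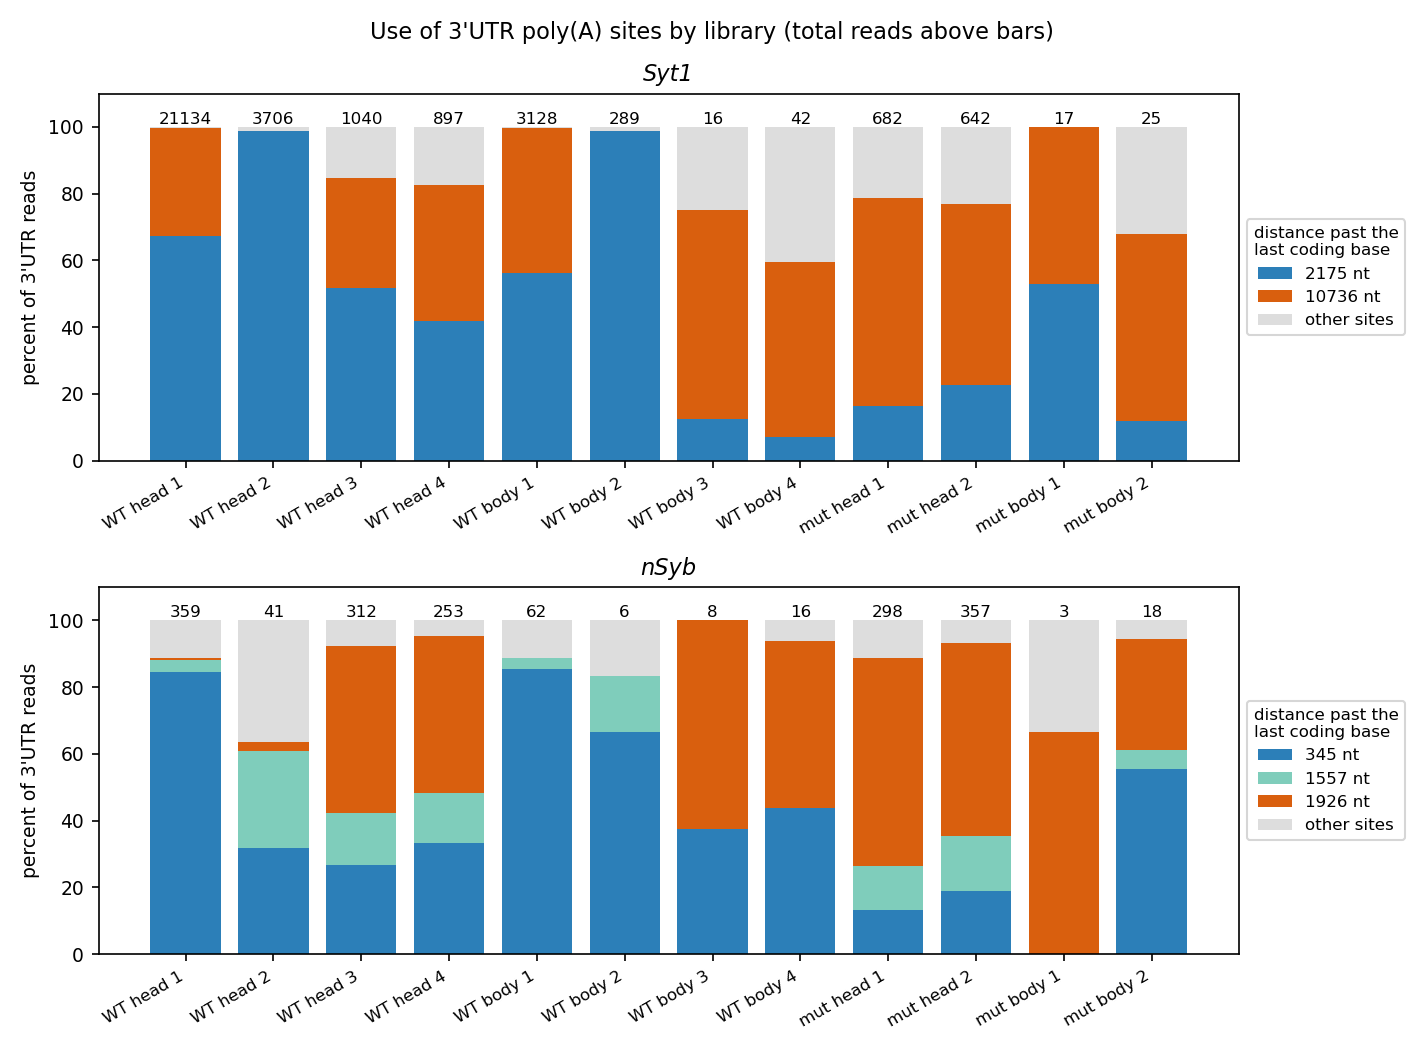
Share of 3'UTR reads at each site above 5% of the pooled 3'UTR reads, by library, for Syt1 above and nSyb below; colours give the distance of the site past the last coding base and grey all other sites, with the 3'UTR reads of each library above its bar. The distal Syt1 site is missing in both libraries numbered 2 and the farthest nSyb site nearly so in block 1, and the nearest site of both genes has its lowest head shares in the mutant.

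VGlut ended at a single site, 2410665, 3 nt past the annotated end. It held 89.0%, 95.4%, 98.3% and 98.5% of the 3'UTR reads in wild-type heads 1 to 4, 83.8%, 92.6%, 100% and 100% in wild-type bodies 1 to 4, and 97.1 to 100% in the mutant libraries. A gene with 1 site above 5% has no test of site choice. The rest of the reads in block 1 lay mostly at 2410335, with 25 reads in head 1 and 11 in body 1. Within the main site of VGlut most reads fell on 3 bases, 2410658, 2410665 and 2410668. Each had reads in every library, except the last base in mutant body 1 (0 of 23). In heads 2, 3 and 4 the first base took 40.1%, 37.0% and 41.5% of the site, and in head 1 it took 14.0%.

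Gad1 also had a single main site, 4074075, 2 nt from the annotated end, with 91.9 to 99.8% of its 3'UTR reads in each of the 6 head libraries. The wild-type bodies had 146 of 148, 28 of 30, 15 of 18 and 4 of 7 reads there. The mutant bodies had 1 of 3 and 10 of 29, or 33.3% and 34.5%, below every other library. Most of the remaining 3'UTR reads of Gad1 in mutant bodies lay at a minor site at 4074664, with 2 and 14 reads. In the libraries numbered 2 the main end of Gad1 fell at 4074077 in place of 4074075. The proximal end of Syt1 there fell at 2780895 and 2780899 in place of 2780893 and 2780896, while the plus-strand VGlut site kept its bases. Joining positions within 24 nt puts these bases in the same site.

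Reads upstream of the last coding base were rare in heads. In wild-type heads 3 and 4 and both mutant heads they made up 2.50 to 3.26% of the reads of Syt1, 1.65 to 4.59% of nSyb, 0.719 to 1.06% of VGlut and 3.21 to 4.20% of Gad1. In the wild-type heads of block 1 they made up 0 to 1.21%. VGlut had none in any body library, among 23 to 80 reads each. nSyb had 10 and 11 reads at an intronic site, 1632789, in wild-type heads 3 and 4 and none there in the other 10 libraries. Syt1 had 5 reads in each mutant head at an intronic site, 2790189, and none in the other libraries.

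Gad1 was the member with the most upstream reads in mutant bodies. They made up 19 of 22 reads (86.4%, 95% Wilson interval 66.7 to 95.2%) in mutant body 1 and 14 of 43 (32.6%, 20.5 to 47.5%) in mutant body 2. The wild-type bodies had 0 of 148, 0 of 30, 1 of 19 and 2 of 9. Of the reads in mutant bodies, 17 and 9 lay at an intronic site, 4076459, which is 1091 nt upstream of the last coding base and had 1 read in wild-type body 4, 1 in each mutant head and 0 in the other 7 libraries. The 9 reads of wild-type body 4 leave its share of 22.2% an interval of 6.32 to 54.7%. The log2 change of upstream over downstream reads in bodies was 3.27 ± 1.26 (adjusted p = 0.241) and was not called, where 1.92% of 936 genes were. It was called without mutant body 2, at 5.55 (adjusted p = 5.88e-05). In heads the change was -0.23 ± 0.99 (adjusted p = 1), and 0.748% of genes were called. VGlut, nSyb and Syt1 were not called in either tissue within block 2, and without mutant body 1 Syt1 was called in bodies (-2.70, adjusted p = 0.0422).

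The upstream reads of Syt1 lay mainly in wild-type body 3. They made up 102 of 118 reads there (86.4%, 95% Wilson interval 79.1 to 91.5%), against 7 of 3135, 1 of 290 and 6 of 48 in the other wild-type bodies and 12 of 29 and 5 of 30 in the mutant bodies. Of the 102 reads, 100 fell at 2789743, in the non-coding part of an exon of 1 transcript. The tissue test gave -4.28 ± 1.38 (adjusted p = 0.0434), lower in heads, and 14.3% of 791 genes were called in that direction. Without wild-type body 3 the change was -2.85 and was not called (adjusted p = 0.211), and it was also lost without wild-type head 1, 3 or 4, with adjusted p of 0.07, 0.153 and 0.144. It was lost without the block as a term (-3.26, adjusted p = 0.739) and in block 1 alone (-3.24, adjusted p = 0.513). It was kept with the replicate block (-4.87, adjusted p = 1.27e-10), in block 2 alone (-5.58, adjusted p = 1.57e-16) and without both libraries numbered 2 (-5.36, adjusted p = 1.49e-14). The same library had 14510 CPM of summed fat body markers, against 776.8 to 917.1 CPM in the other wild-type bodies, and their part in the Syt1 reads was not tested.

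**Figure D4:**
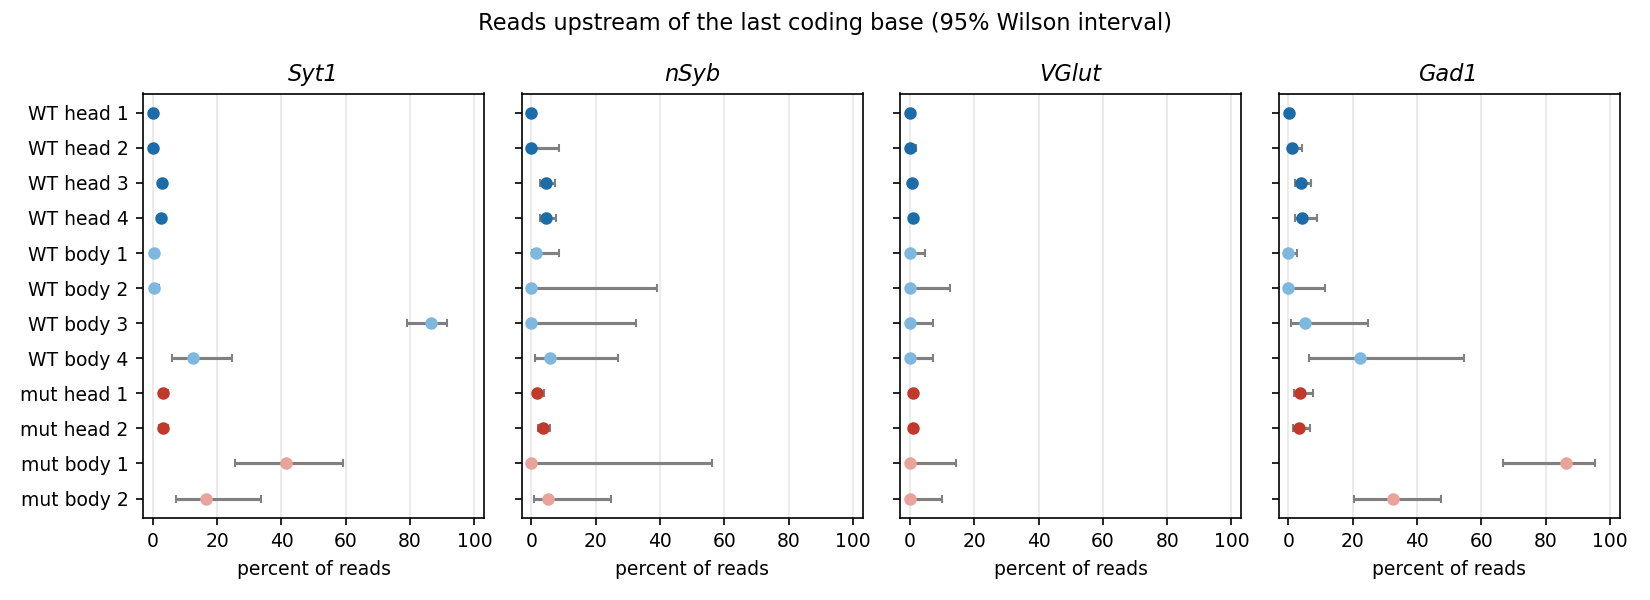
Percent of each gene's reads that lie upstream of its last coding base, by library, with 95% Wilson intervals for counting error; colours mark genotype and tissue. Syt1 in wild-type body 3 and Gad1 in mutant body 1 stand at 86.4% each, and VGlut stays at or below 1.06% in every library.

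Likeness of level was measured as Pearson's r of log2(CPM + 1) over the 12 libraries among 2544 genes averaging at least 10 CPM. These points share the libraries, the tissues and the blocks, so r is a description. The genes most like Syt1 were Cip4 (0.985), dpr19 (0.980) and CG17294 (0.977), and those most like nSyb were miple1 (0.967), CG3104 (0.967) and DIP-eta (0.962). VGlut was most like Sytalpha (0.990), another synaptotagmin, witty (0.989) and CG9497 (0.988). Gad1 was most like CG14015 (0.968), CG13995 (0.967) and galectin (0.965). Among the members themselves r was highest between nSyb and VGlut (0.939) and between Syt1 and Gad1 (0.930), and lowest between Syt1 and VGlut (0.712).

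Other genes in the named regions, from 4 lists on release, transmitter handling, receptors, and excitability and adhesion, were also tested between tissues. Not all of them encode synaptic proteins: Rbp9, which is named in several results below, encodes an RNA-binding protein of the Elav family. Without the members, 33 of 36 could be tested, and 16 were higher, 5 lower and 12 not called in wild-type heads, with a median log2 change of 1.44 against 0.04 for all genes. Of all genes tested, 47.8% were called in either direction and 17.4% were called higher. In the release list, 3 of 6 tested were higher and 1 was lower, and in the transmitter list 4 of 5 were higher. Among the latter, Eaat1 and Eaat2 are also counted as glial markers above. In the receptor list 4 of 9 were higher and 1 was lower, and in the last list 5 of 13 were higher and 3 lower. The smallest adjusted p were those of nrv3 (3.55, adjusted p = 8.53e-05), a neuronal subunit of the sodium pump, Sytalpha (4.32, adjusted p = 9.72e-05), nAChRbeta1 (2.78, adjusted p = 0.000104), a subunit of acetylcholine receptors, the potassium channel gene Shab (2.45, adjusted p = 0.000127), the transporter gene Eaat2 (3.88, adjusted p = 0.000147) and tipE (3.17, adjusted p = 0.00019), which helps sodium channels. Genes lower in heads were GluRIIA, the glutamate receptor subunit of muscle (-3.88, adjusted p = 0.00193), tkv, Shaw, CadN2 and Liprin-alpha.

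In the mutant, 21 of these 33 genes were higher and 3 lower in heads, with a median of 2.03 against -0.04 for all genes. Of all genes tested there, 55.8% were called and 21.1% were called higher. Sytalpha (5.47), Eaat2 (4.46), nrv3 (4.40), tipE (4.26), the active zone gene Fife (3.33) and the receptor gene DopEcR (3.86) had the smallest adjusted p, from 0.000261 to 0.000423 in edgeR's test. Between strains none of the 33 genes was called in heads or bodies, as for the members, where 1.16% and 2.68% of all genes were called. Between blocks 7 of the 33 were higher and 6 lower in block 1, led by nAChRbeta1 (4.23, adjusted p = 0.00017 in edgeR's test). Of all genes tested, 40.1% differed between the blocks.

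Site choice in these genes was tested as well. In the wild-type tissue test 6 of 32 sites in 13 genes were called, against 12.3% of all sites, namely at Shaw 3729186 (6.36) and 3727164 (-5.07), Rbp9 2968439 (3.90), GABA-B-R3 762144 (3.28), CadN 17647048 (3.72) and Rop 4136348 (2.10). The calls at Shaw and Rbp9 held in 14 of 15 or 14 of 16 alternatives each, those at GABA-B-R3 in 8 of 14, at CadN in 9 of 15 and at Rop in 8 of 15. In mutant heads 4 of 52 sites were called (4.39% of all sites), nAChRalpha6 9793977 (9.46) and 9795107 (-8.83) and Rbp9 2964853 (1.64) and 2968439 (-2.24), and in bodies 2 of 52, both of Shaw, below the 4.93% of all sites. The calls at nAChRalpha6 held in 7 of 9 alternatives each, those at Rbp9 in 4 and 6 of 11, and those at Shaw in 11 and 10 of 12. For upstream reads, 1 of 25 genes was called higher and 6 lower in wild-type heads, where 17.7% of all genes were called, wit with a change of -6.04 having the smallest adjusted p (9.6e-05). Between strains GABA-B-R3 alone was called in bodies (-3.72, adjusted p = 0.0247; 1.92% of all genes), a call that held in 4 of 12 alternatives, and no gene of the lists in heads (0.748%).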

How the data were processed

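The deposited files give, for each library, counts of reads at each genomic position and strand, not normalized by the authors. Reads were aligned with Bowtie2 to BDGP5, per the submitters' processing notes; tail filters, and which library used which protocol, were not given in the sources used here. Total counts were 2219693 to 9062730 per library, the lowest in wild-type body 2 and the highest in mutant body 2. Gene names came from a BDGP6 annotation, only where coordinates matched: on 2L to 22258266 and on 3L to 4919025, 61.7% and 57.5% of positions with at least 200 reads lay within 10 nt of annotated ends, and 0.256% and 0.227% after a shift of 5000 nt. Of reads there, 93.6% fell to 1 gene on their strand; 5.69% at overlapping genes and 0.754% between genes were left out. No genome of the files' build was used here, and no sequence is shown.

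Expression and shares were tested with edgeR 4.0.16 in R 4.3.3 (quasi-likelihood, TMM and filterByExpr for expression, Benjamini-Hochberg at 0.05). Shares were fitted as paired columns, the reads at a site or class against the gene's other reads, with a term per library; sites needed 5% of 3'UTR reads and genes a mean of 20 reads, and upstream tests 10 upstream reads. Tissue in the wild type used 8 libraries with the block as a term, and strain contrasts the 8 libraries of block 2. Alternatives were DESeq2 1.42.0, limma 3.58.1 on log2 ratios with 0.5 reads added, other scaling, filters, reach (300 nt) and joining, each library left out, and, added after seeing the data, both libraries numbered 2 left out and the block contrast. Scripts were tested on simulated data. Deviations of same-numbered wild-type heads and bodies from their group means correlated at 0.665 to 0.717, over 0.1 in all 4 pairs. The replicate block was run on that ground. The group means spanned both blocks, so any block difference shared by heads and bodies enters these correlations, and they cannot show pairing by number. The mutant pairs, which lie within block 2, both had 0.025. With 2 libraries a group the deviations mirror each other, so both pairs give the same value by construction.

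Members, gene lists and markers were chosen with earlier results of these data known. Named were the 4 members in every comparison, up to 6 called list genes or sites per comparison with the smallest adjusted p, 3 genes most like each member, and member sites above 5% of pooled 3'UTR reads or with at least 10 upstream reads; others named (the site at 2780578, the minor ends of VGlut and Gad1, the list genes lower in heads) were chosen after their values were seen.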

Additional observations from a re-analysis of the deposited data

Results flagged for a closer look

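The share of Syt1 reads upstream of the last coding base was 86.4% in wild-type body 3, while the other wild-type bodies had 0.223%, 0.345% and 12.5%; the distance of this library from the other 3 exceeded the critical value of Dixon's test for 4 samples. The share of the nearest nSyb site was 84.4% in wild-type head 1, against 26.6% to 33.2% in the other 3 wild-type heads, and exceeded the same value. By chance about 1 in 20 groups of samples exceeds it.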

How the results depend on the processing

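The members' higher level in heads kept its direction in both strains under every alternative run, with log2 changes of 2.69 to 4.69 in the wild type and 2.10 to 6.23 in the mutant, and the calls lost are given in the report. The counts of called genes or sites moved widely. In wild-type tissue expression, 513 genes were called in block 1 alone in place of 1137, and 927 to 1376 with a library left out. In heads between strains, 32 genes were called, 112 by DESeq2, 670 with all 12 libraries and the replicate block, and 4 to 140 with a library left out. In bodies, 74 were called, 114 without the filter, 211 by DESeq2, 772 with the replicate block and 7 to 885 with a library left out. The interaction gave 0, 13 by DESeq2 and 0 to 306. Mutant tissue gave 1542 and 1224 to 1940, and the block contrast 954 and 738 to 997.

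For 3'UTR sites by tissue, 340 were called, 69 without the block as a term, 790 with the replicate block, 0 in block 1 alone, 779 in block 2 alone, 830 without both libraries numbered 2, and 134 to 429 with a library left out. Between strains, heads gave 131, 73 with sites of at least 10%, 675 with the replicate block and 29 to 498; bodies gave 147, 773 with the replicate block and 34 to 1094. For upstream shares by tissue, 140 were called, 52 without the block as a term, 216 with the replicate block, 25 and 225 in blocks 1 and 2 alone, 235 without both libraries numbered 2, and 86 to 180. Heads between strains gave 7, 12 with limma, 4 with each class at least 1%, 85 with the replicate block and 1 to 42; bodies gave 18, 156 with the replicate block and 2 to 212. The cause of these moves was not tested.

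Pairing of replicate numbers between strains is not given by the labels and was not tested. The fit with all 12 libraries and the replicate block by its construction brings block 1 into the wild type. On those 12 libraries edgeR called Syt1 in heads (-5.34, adjusted p = 0.00151) and bodies (-6.04, adjusted p = 0.000868) and Gad1 in heads (-2.78, adjusted p = 0.00623) and bodies (-1.87, adjusted p = 0.0291). It called the sites Syt1 2780896 (-6.20, adjusted p = 0.00346) and 2772335 (5.82, adjusted p = 0.034) and nSyb 1630344 (7.68, adjusted p = 6.93e-05) and 1631925 (-3.29, adjusted p = 0.0257) in heads, and nSyb 1630344 in bodies (6.47, adjusted p = 0.00354). It called the upstream shares of Syt1 in heads (7.44, adjusted p = 0.000118) and bodies (6.62, adjusted p = 0.000829) and of Gad1 in bodies (8.08, adjusted p = 3.49e-05). None of these was called within block 2 with all its libraries. The fit turned nSyb in heads (-0.74) and Gad1 in bodies (-1.87), and in site choice nSyb 1630713 in heads (0.27) and, in bodies, Syt1 2772335 (4.15) and 2780896 (-3.61) and nSyb 1630344 (6.47), 1630713 (-0.33) and 1631925 (-2.04, and -0.76 with limma). It also turned the upstream shares of Gad1 (3.60) and nSyb (3.01) in heads and of Syt1 (6.62) and GABA-B-R3 (1.01) in bodies. nSyb in heads was -0.001 with DESeq2's size factors and with DESeq2, and the upstream share of VGlut by tissue was -1.29 with limma. Other values that changed sign with a library left out were not called: between strains in heads, Gad1 ranged from -0.47 to 0.12, VGlut from -0.16 to 0.002 and nSyb from -0.084 to 0.21, and nSyb in bodies from -1.71 to 0.40. The interaction ranged from -0.15 to 1.22 for Syt1 and from -0.40 to 1.71 for nSyb. By tissue, Syt1 2772335 ranged from -3.06 to 0.036, nSyb 1630344 from -0.35 to 0.21 and the upstream share of Gad1 from -1.43 to 0.28. Between strains, nSyb 1630713 in heads ranged from -0.23 to 0.10; in bodies Syt1 2772335 ranged from -0.61 to 0.03, Syt1 2780578 from -4.62 to 3.33, nSyb 1630344 from -1.26 to 0.68, nSyb 1631925 from -4.32 to 0.80, and the upstream shares of nSyb from -0.52 to 1.90 and of Syt1 from -3.99 to 1.46. Few reads of a member limit the bodies: nSyb had 3 to 63 reads there, so its site shares in bodies carry little information.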
